A study of Rattus norvegicus with 12 samples.

Results

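Secreted proteins of Sertoli cells and factors of the germ cell niche were followed in cultured rat Sertoli cells given MBP. The genes are Clu, Tf, Cst3, Sparc, Kitlg, Gdnf, Fgf2, Lif, Bmp4 and Cxcl12, 10 in all. Members were the probe sets of the gene array's main category whose annotation holds 1 gene symbol and that symbol is in the list. This gave 9 probe sets of 8 genes, among 27342 probe sets of the main category. Sparc had 2 of them, and 1 of these lies in the mitochondrial 12S ribosomal RNA. Tf and Fgf2 were reached by no probe set with 1 symbol. Their 4 probe sets carry a second symbol each, and they are given apart from the members under both symbols.

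The MBP group was cells of 9-day-old rats that received 0.1 mM MBP for 24 h, with 3 gene arrays. The control group was cells of the same age cultured alongside without MBP, which the series' design text calls solvent-treated, also with 3 gene arrays. Both groups came from digested testis, and were cultured for 24 h in DMEM/F12 medium with 10% fetal bovine serum before the groups were formed. The labels do not spell out MBP, do not give the strain, and do not say whether animals were pooled. Arrays of each group are numbered 1 to 3. The labels do not say whether a number stands for an animal, an isolation or a dish, so the spread behind each p-value may be a technical one.

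Sertoli cells line the seminiferous tubule and supply germ cells with proteins that cannot cross the barrier between blood and tubule. Clusterin, transferrin and cystatin C are among their abundant secretions. Growth factors made by Sertoli and peritubular cells set the balance between stem cell renewal and differentiation. GDNF signals through Gfra1 and Ret to keep spermatogonial stem cells, and FGF2 acts with it. KIT ligand acts on the receptor Kit of differentiating spermatogonia, and CXCL12 keeps germ cells in the niche through Cxcr4.

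Upstream sequence was available for 8 of the 10 genes in a RefSeq promoter table of assembly GRCr8. The 250 bases before the annotated start are shown for Kitlg, Cst3 and Sparc. These are the genes whose signal in arrays of number 3 differed from that in numbers 1 and 2, as described further on. Sequences run 5′ to 3′ on the gene's strand, and capitals mark TATAAA and GGGCGG on either strand. TATAAA is the core of the TATA box, and GGGCGG that of the GC box.
Kitlg (chr7:36782410-36782659, plus strand): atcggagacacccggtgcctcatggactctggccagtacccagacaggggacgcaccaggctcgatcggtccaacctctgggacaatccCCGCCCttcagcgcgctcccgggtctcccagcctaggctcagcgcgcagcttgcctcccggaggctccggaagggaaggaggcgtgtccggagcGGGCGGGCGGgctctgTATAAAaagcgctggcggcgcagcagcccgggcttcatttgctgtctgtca
Cst3 (chr3:156793938-156794187, minus strand): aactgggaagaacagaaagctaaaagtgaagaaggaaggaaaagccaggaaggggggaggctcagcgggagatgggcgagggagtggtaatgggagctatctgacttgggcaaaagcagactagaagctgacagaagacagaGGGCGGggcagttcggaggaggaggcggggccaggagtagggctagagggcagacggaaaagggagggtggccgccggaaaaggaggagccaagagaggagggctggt
Sparc (chr10:40038817-40039066, minus strand): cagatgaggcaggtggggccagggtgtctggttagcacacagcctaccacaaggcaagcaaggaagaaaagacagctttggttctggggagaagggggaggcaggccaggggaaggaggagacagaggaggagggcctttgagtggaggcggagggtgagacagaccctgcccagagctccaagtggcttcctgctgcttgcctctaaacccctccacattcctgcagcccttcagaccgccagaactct
Kitlg held 1 TATAAA and 3 GGGCGG matches, of which 2 overlap. Cst3 held 1 GGGCGG and no TATAAA match, and these letters were not found in the Sparc window. TATAAA stood in 12.9% and GGGCGG in 30.5% of the 33469 windows of this length in the table. The windows were 67.2% G and C for Kitlg, 58.8% for Cst3 and 60.0% for Sparc, against a median of 51.2% over the table.

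Signals are on the log2 scale, as deposited, and 1 value was given per probe set and array. Background was set on each array at the 95th percentile of the intron control probe sets, which measure sequence that is spliced out. It was higher on the number 3 arrays, at 6.18 (MBP) and 6.20 (control), than on the other 4, at 5.67 to 5.88. On the number 3 arrays 6661 (MBP) and 6647 (control) main probe sets were above background, against 7568 to 8178 on the others. In all, 23.2% of main probe sets were above background on all 6 arrays.

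The labelled cell type was checked against marker genes. Of 15 measured Sertoli markers 4 were above background on all 6 arrays, namely the transcription factors Wt1 and Gata4, the junction gene Tjp1, and a probe set annotated as Fshr whose annotation text names GAPDH transcripts. The Sertoli genes Amh, Inha, Inhbb, Cldn11, Dhh, Shbg, Aard and Dmrt1 were below background on every array. Of 13 peritubular myoid and fibroblast markers 12 were above background on all 6 arrays, 1 of 6 Leydig (Star), 1 of 9 germ cell (Uchl1), 1 of 8 macrophage and leukocyte (Cd14) and 0 of 5 endothelial markers. In such cultures fewer cells of a type and less RNA per cell cannot be told apart.

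The mean levels of the members differed little between MBP and control arrays. None of the 9 probe sets passed the limma test of MBP minus control, where 0% of all main probe sets did, and none had an unadjusted p under 0.05. The largest difference in size among the members was that of Cst3, at -0.08 on the log2 scale. Of the 9, 5 were lower with MBP, against 53.4% of all main probe sets. The median log2 difference of the 9 was -0.00094, against -0.0065 over all main probe sets. Of the 6341 main probe sets above background on all 6 arrays, 4352 were lower with MBP and 1989 higher. Their median log2 difference was -0.030. MBP and control arrays overlapped for all 9, where they did not overlap for 3.43% of main probe sets.

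**Figure D1:**
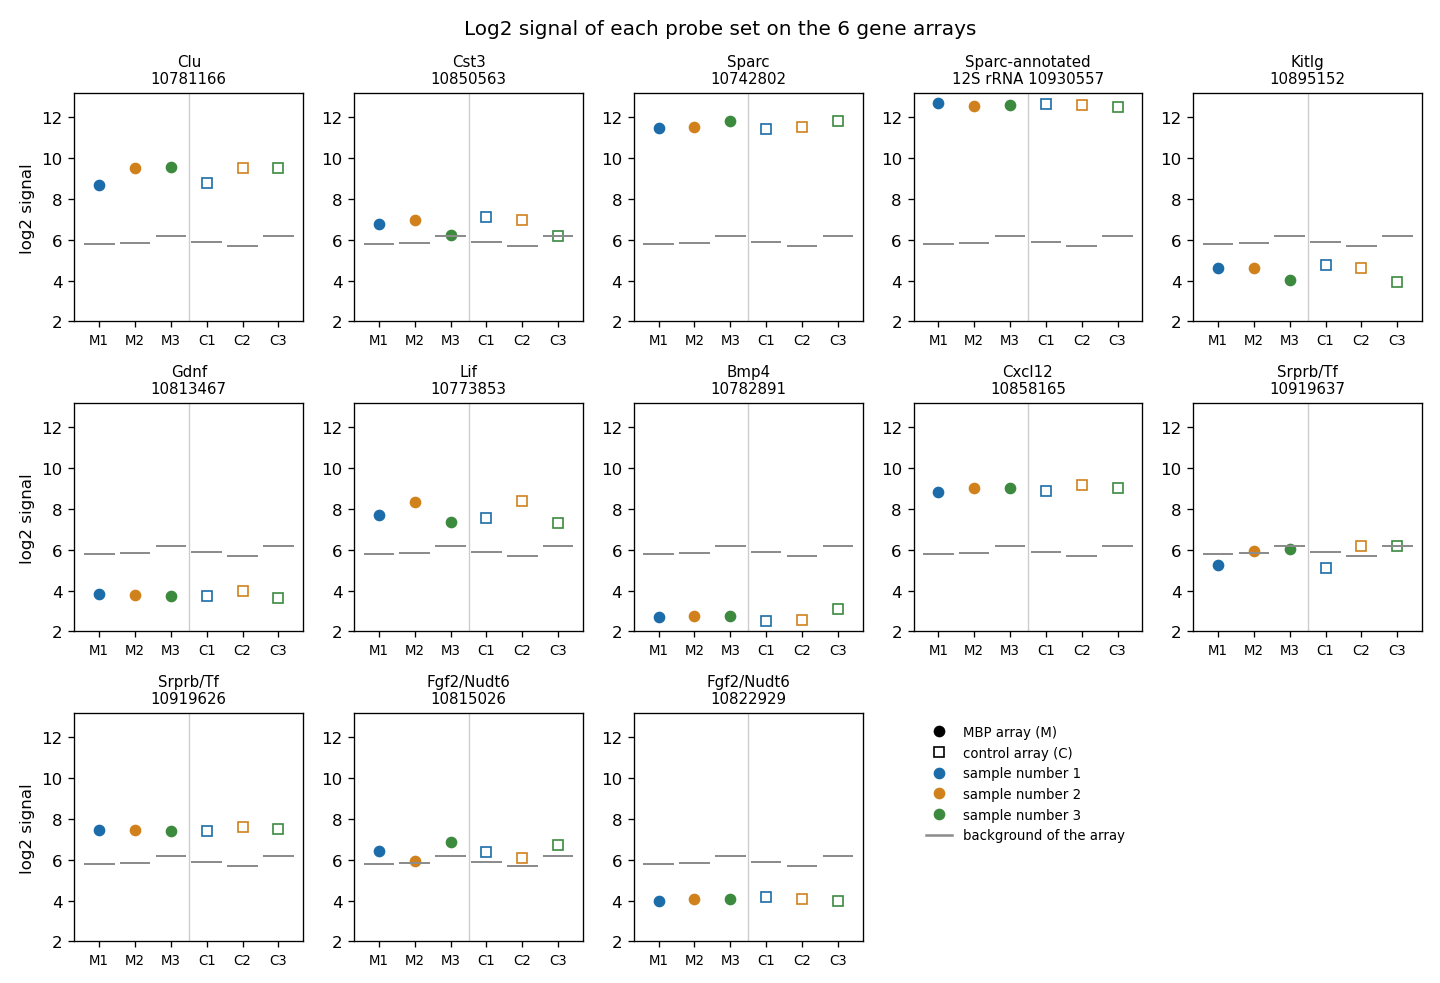
Log2 signal (vertical axis) of the 9 member probe sets and of the 4 probe sets with a second symbol on the MBP arrays M1 to M3 (filled circles) and the control arrays C1 to C3 (open squares), coloured by sample number, with a grey line at each array's background. Clu, Sparc, Lif and Cxcl12 lay above background on all 6 arrays, and Kitlg, Gdnf and Bmp4 lay below it on all 6.

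Among the secreted proteins, Clu encodes clusterin, an extracellular chaperone (gene on chromosome 15, 48926516 to 48939266, Rnor_5.0). It had log2 signals of 8.67, 9.50 and 9.55 on MBP arrays 1, 2 and 3, against 8.78, 9.54 and 9.53 on control arrays 1, 2 and 3. Array 1 of each group was the lowest, and the groups overlapped. The means were 9.24 ± 0.49 with MBP and 9.28 ± 0.44 in control (SD, n = 3 each), a log2 difference of -0.04 ± 0.32 (SE, limma, adjusted p = 1). The 95% interval allowed 0.564 to 1.67 times the control level. With the sample number as a block, that is, comparing MBP with control arrays of the same number, it narrowed to 0.883 to 1.07 times (adjusted p = 0.898).

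Cst3 encodes cystatin C, an inhibitor of cysteine proteases such as the cathepsins (chromosome 3, 149628698 to 149632565, Rnor_5.0). Its log2 signals were 6.79, 6.96 and 6.24 on MBP arrays, against 7.10, 6.96 and 6.16 on control arrays. Control array 3 was below background and MBP array 3 just above it. The means were 6.66 ± 0.37 with MBP and 6.74 ± 0.51 in control. The pair of number 1 had the largest gap, at -0.32 for MBP minus control, while pairs 2 and 3 stood at -0.0048 and 0.08. The blocked 95% interval ran from -0.32 to 0.15 on the log2 scale.

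Sparc encodes a secreted glycoprotein that binds collagen and calcium (chromosome 10, 40573518 to 40595276, Rnor_5.0). Its log2 signals were 11.50, 11.51 and 11.82 on MBP arrays, against 11.45, 11.54 and 11.85 on control arrays. Array 3 was the highest of each group. The means were 11.61 ± 0.18 with MBP and 11.61 ± 0.21 in control, and the blocked 95% interval allowed 0.912 to 1.09 times the control level. The second probe set with this symbol, 10930557, is annotated to the mitochondrial 12S ribosomal RNA, so its signal is not taken for Sparc. It was at 12.70, 12.58 and 12.62 with MBP, against 12.68, 12.60 and 12.50 in control, and did not share the high values of array 3.

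Tf encodes transferrin, which carries iron to germ cells. Its probe sets also carry the symbol of Srprb, a subunit of the receptor for the signal recognition particle, and the annotation lists the same Ensembl gene for both probe sets. Probe set 10919637, whose RefSeq messenger is that of Tf, had log2 signals of 5.27, 5.96 and 6.04 on MBP arrays, against 5.09, 6.16 and 6.19 on control arrays. It was above background on 2 of the 6 arrays, and array 1 was the lowest of each group, as it was for Clu. Probe set 10919626, whose RefSeq messenger is that of Srprb, was at 7.46, 7.46 and 7.43 with MBP, against 7.43, 7.61 and 7.53 in control. The limma differences were -0.06 and -0.07, each with an adjusted p of 1.

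Of the niche ligands, Kitlg, Gdnf and Bmp4 were below background on all 6 arrays, so no fold is given for them. Kitlg (chromosome 7, 42337401 to 42383921, Rnor_5.0) had log2 signals of 4.61, 4.62 and 4.01 on MBP arrays, against 4.75, 4.61 and 3.95 on control arrays. Array 3 was the lowest of each group. Gdnf (chromosome 2, 76897561 to 76919745, Rnor_5.0) was at 3.83, 3.79 and 3.73 with MBP, against 3.72, 3.99 and 3.62 in control. Bmp4, a ligand of the TGF-beta family (chromosome 15, 24735177 to 24738725, Rnor_5.0), was at 2.72, 2.77 and 2.77 with MBP, against 2.52, 2.55 and 3.11 in control. Gdnf was lowest on array 3 of each group, and Bmp4 on array 1 of each group, and the 2 groups overlapped for all 3 genes. The limma differences were -0.02 for Kitlg, 0.0079 for Gdnf and 0.02 for Bmp4, each with an adjusted p of 1.

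Lif encodes a cytokine of the interleukin 6 family that signals through Lifr and Il6st (chromosome 14, 85177766 to 85180540, Rnor_5.0). It had log2 signals of 7.71, 8.36 and 7.36 on MBP arrays, against 7.56, 8.41 and 7.32 on control arrays. Array 2 was the highest and array 3 the lowest of each group. The means were 7.81 ± 0.51 with MBP and 7.76 ± 0.58 in control (SD, n = 3 each), a log2 difference of 0.05 ± 0.37 (SE, limma, adjusted p = 1). The 95% interval allowed 0.55 to 1.95 times the control level, and 0.927 to 1.16 times with the block.

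Cxcl12 encodes a chemokine (chromosome 4, 215195689 to 215203554, Rnor_5.0). Its log2 signals were 8.82, 9.02 and 9.03 on MBP arrays, against 8.90, 9.17 and 9.05 on control arrays. It was the only member lower with MBP in each of the 3 pairs, by -0.07, -0.15 and -0.02. The means were 8.96 ± 0.12 with MBP and 9.04 ± 0.14 in control, with a limma difference of -0.08 ± 0.10 (SE, adjusted p = 1). The blocked interval allowed 0.860 to 1.04 times the control level (adjusted p = 0.865).

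Fgf2 encodes a fibroblast growth factor and overlaps Nudt6, which is transcribed from the opposite strand. Both of its probe sets carry both symbols. Probe set 10815026, on the plus strand and with the RefSeq messenger of Fgf2, had log2 signals of 6.45, 5.96 and 6.88 on MBP arrays, against 6.38, 6.10 and 6.73 on control arrays. Array 3 was the highest and array 2 the lowest of each group, and all 6 were above background. Probe set 10822929, on the minus strand and with the RefSeq messenger of Nudt6, was at 3.97, 4.09 and 4.09 with MBP, against 4.16, 4.09 and 3.98 in control, below background throughout. The limma differences were 0.02 and -0.03, each with an adjusted p of 1.

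**Figure D2:**
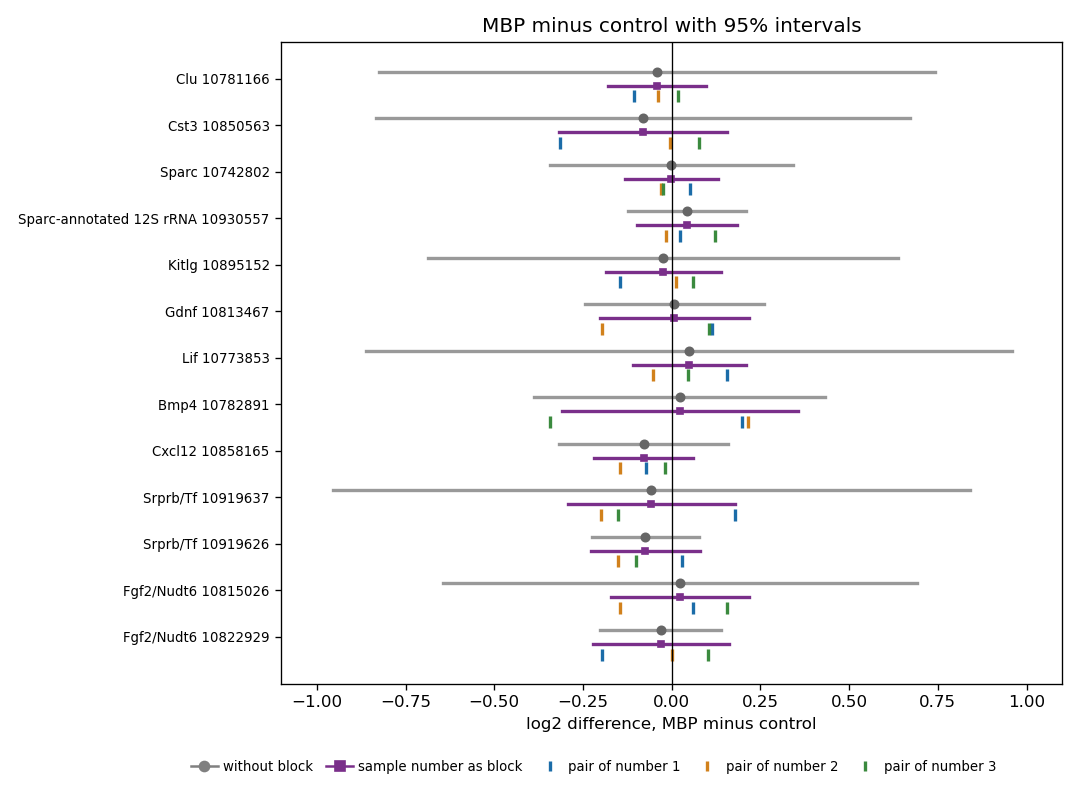
MBP minus control on the log2 scale (horizontal axis) for each probe set, with the 95% limma interval without the block (grey, circle) and with the sample number as a block (purple, square), and ticks for the pairs of number 1, 2 and 3. All intervals include 0, and that of Clu narrows from -0.83 to 0.74 without the block to -0.18 to 0.10 with it.

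Several members differed between sample numbers. A moderated F test between the 3 numbers, with treatment in the fit, asked whether a gene differed between numbers by more than same-numbered arrays differed from each other. It called 5 of the 9 member probe sets, those of Clu, Cst3, Sparc, Kitlg and Lif, against 9.62% of all main probe sets. Among main probe sets above background on all 6 arrays it called 24.1%, and among the 4 members of that kind apart from the 12S probe set it called 3. Whether the share of members stands apart from these was not tested. The calls rest on 2 arrays per number, and leaving out any of the 6 arrays brought the count over all main probe sets from 2630 to 0, with adjusted p-values of 0.137 or more for the members named here.

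Clu was low in number 1. Its mean log2 signal was 8.72 in number 1, 9.52 in number 2 and 9.54 in number 3 (2 arrays each), and the F test gave an adjusted p of 0.0101. Number 1 was 1.73-fold below number 2 (limma, adjusted p = 0.0475) and 1.76-fold below number 3 (adjusted p = 0.0086), while the contrast of numbers 2 and 3 did not pass (adjusted p = 0.884). These contrasts of 2 numbers, chosen after the data were seen, called 0.333% of all main probe sets between numbers 1 and 2, 8.56% between 1 and 3, and 10.5% between 2 and 3. The number accounted for 99.3% of the sum of squares of Clu over the 6 arrays and MBP for 0.299%. The Srprb/Tf probe set 10919637 was also lowest in number 1, at 5.18, against 6.06 in number 2 and 6.12 in number 3 (limma F, adjusted p = 0.0215). It was above background in number 2 only, and its contrast of numbers 1 and 2 did not pass (limma, adjusted p = 0.0745).

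Lif was highest in number 2. Its mean log2 signals were 7.63, 8.38 and 7.34 in numbers 1, 2 and 3 (limma F, adjusted p = 0.0101). Number 2 was 2.06-fold above number 3 (adjusted p = 0.0058), and its gap of 0.75 log2 units to number 1 did not pass for that pair alone (adjusted p = 0.0536).

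The signals of Cst3 and Kitlg were low in number 3, and that of Sparc was high there. Kitlg was below background on every array and background was higher in number 3, so its signal is not read as a level of the gene. Cst3 had mean log2 signals of 6.94, 6.96 and 6.20 in numbers 1, 2 and 3 (limma F, adjusted p = 0.0316), and Kitlg 4.68, 4.61 and 3.98 (adjusted p = 0.0184). For both, number 3 differed from number 1 (adjusted p = 0.0289 for Cst3 and 0.0155 for Kitlg) and from number 2 (adjusted p = 0.0227 and 0.0147), while numbers 1 and 2 did not pass. Sparc had 11.48, 11.53 and 11.84, a smaller spread, with an adjusted p of 0.04997 at the edge of the threshold. After median centring of the arrays it was 0.0534, so this call depends on the scaling. The Fgf2/Nudt6 probe set 10815026 was at 6.41, 6.03 and 6.80 (adjusted p = 0.0266).

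The remaining members did not pass. Cxcl12 was at 8.86, 9.10 and 9.04 in numbers 1, 2 and 3 (limma F, adjusted p = 0.150). It passed where only probe sets above background on all 6 arrays were fitted (limma F, adjusted p = 0.0241). In that fit 4052 of the 6341 probe sets passed. Gdnf had an adjusted p of 0.421, Bmp4 0.392 and the 12S probe set 0.436. The number accounted for a median of 93.4% of the sum of squares of the 9 probe sets, against 53.9% over all main probe sets. For the 4 members above background on all 6 arrays, without the 12S probe set, it was 98.7%, against 86.1% over main probe sets of that kind. Whether these shares differ was not tested.

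**Figure D3:**
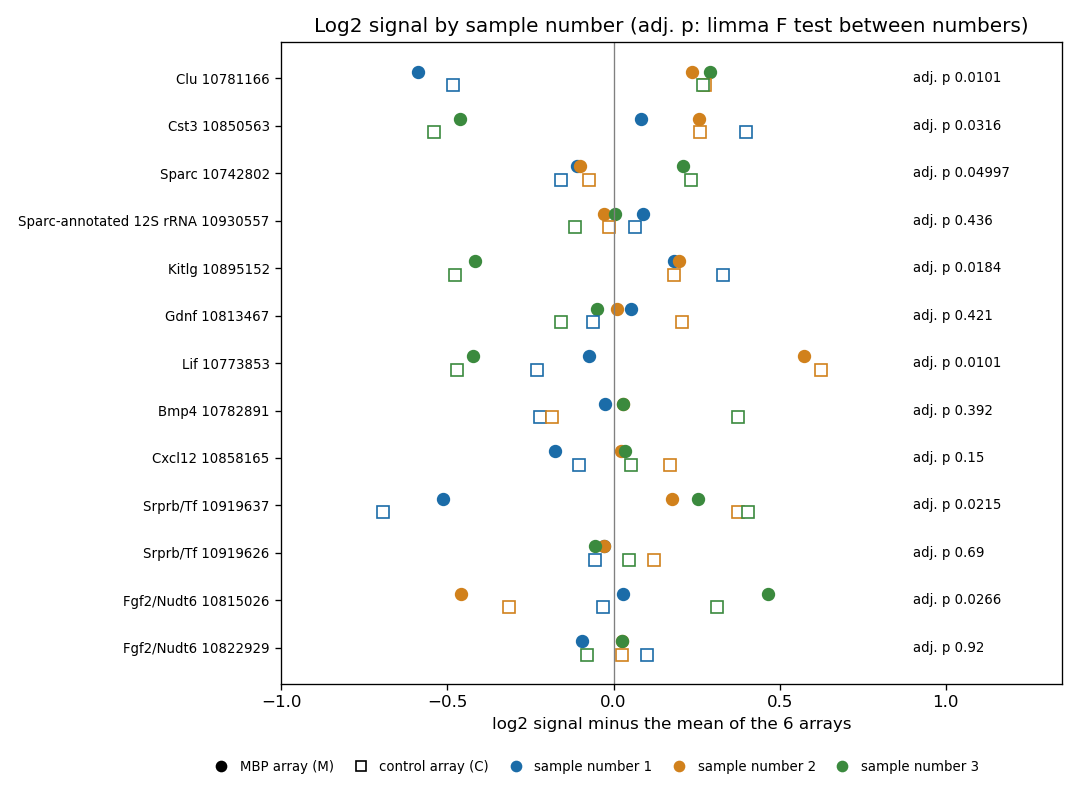
Log2 signal minus the probe set's mean over the 6 arrays (horizontal axis), with MBP arrays as filled circles above control arrays as open squares, coloured by sample number, and the adjusted p of the limma F test between numbers at the right. Same-numbered MBP and control arrays lie close together for Clu, Sparc, Kitlg and Lif, and the number farthest from the others differs between the genes. For Cst3 the arrays of number 1 lie on either side of those of number 2.

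Markers of contractile and connective tissue cells moved with the sample number as well. The summed linear signal of the 13 measured myoid and fibroblast markers ranged over 12062 to 19499 on MBP arrays and over 12990 to 19695 on control arrays. It was 19499 (MBP) and 19695 (control) in number 3, against 12062 to 13200 on the other 4 arrays. The F test called 10 of the 13, against 9.62% of all main probe sets and 24.1% of those above background on all 6 arrays. The smooth muscle myosin gene Myh11 was at 9.13 in number 3, against 7.18 in number 1 and 6.85 in number 2, and smooth muscle actin Actg2 at 10.45, against 7.92 and 8.48. The matrix genes Dcn and Lum, both called, ran the other way. Dcn was at 10.56 in number 3, against 11.10 and 11.26. Lum was at 5.52 in number 3, below background there, against 6.65 and 5.95. Thy1, also called, was highest in number 1, at 7.78, against 7.17 and 7.26 in numbers 2 and 3. The other called markers of this list were highest in number 3. Sparc, Cst3 and the low signal of Kitlg stood apart in the same number 3, and the part of these cells, or of the higher background there, in those differences was not tested. Clu was lowest in number 1 and Lif highest in number 2, and the part of these cells there was also not tested. For the 15 measured Sertoli markers the summed signal was 2565 to 2645 on MBP arrays and 2448 to 2498 on control arrays. Most of it came from the probe set annotated as Fshr, at 1500 to 1727 on MBP arrays and 1394 to 1584 on control arrays. Without it, a choice made after the values were seen, the sum of the other 14 was 881 to 1065 with MBP and 898 to 1054 in control, and the groups overlapped. None of the 15 passed the limma test of MBP against control. Between numbers 3 of the 15 were called, all of which had number 3 as the farthest from the others. Sox9, a transcription factor of Sertoli cells, was at 5.98, 6.13 and 6.87 in numbers 1, 2 and 3 (limma F, adjusted p = 0.0231), Tjp1 at 7.86, 7.64 and 8.32 (adjusted p = 0.0347), and Aard, below background throughout, at 5.53, 5.68 and 4.68 (adjusted p = 0.0136). Wt1 was at 7.02, 6.99 and 6.96.

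**Figure D4:**
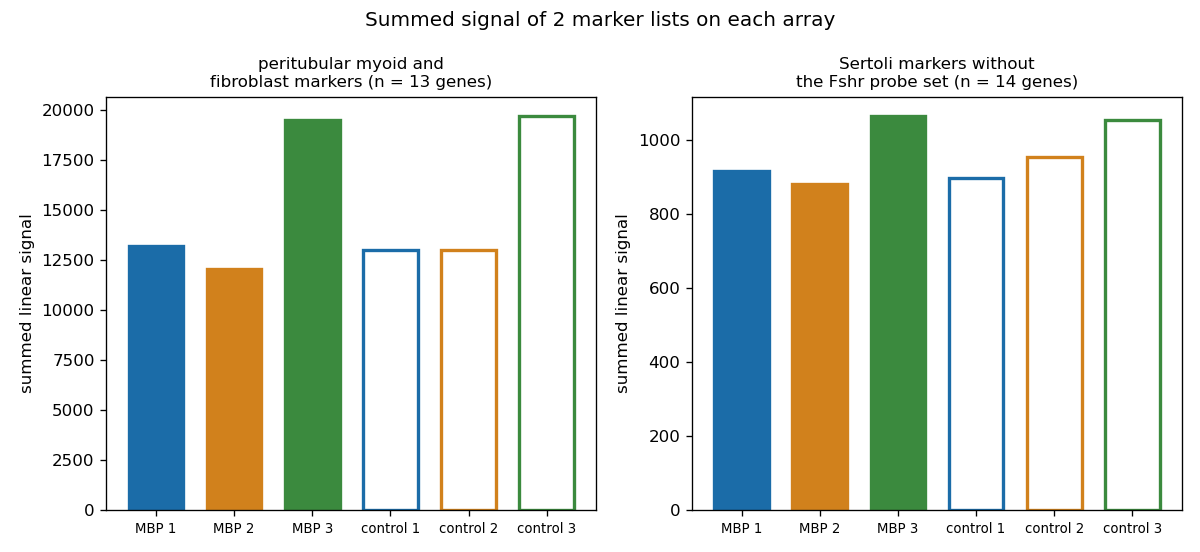
Summed linear signal of the 13 measured peritubular myoid and fibroblast markers (left) and of 14 Sertoli markers, without the probe set annotated as Fshr (right), on each MBP array (filled bars) and control array (open bars), coloured by sample number. The myoid and fibroblast sum is highest on both arrays of number 3, at 19499 (MBP) and 19695 (control), and the Sertoli sum is 1065 and 1054 there.

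Genes with the pattern most like a member were sought over the 6 arrays for members above background on every array with a range of at least 0.5 log2 units, which held for Clu and Lif. Candidates had 1 symbol, signals above background on all 6 arrays and a range no smaller than the member's. For Clu, among 346 candidate probe sets, these were Rasl11b, a small GTPase of the Ras-like group (Pearson r = 0.994), the microfibril-associated gene Mfap4 (r = 0.982) and Errfi1, a feedback inhibitor of the EGF receptor (r = 0.921). Like Clu they were lowest in number 1, Rasl11b at a mean of 7.54, against 8.59 and 8.68 in numbers 2 and 3. For Lif, among 158 candidates, these were the chemokine gene Cxcl6 (r = 0.974), the ectoenzyme gene Enpp3 (r = 0.962) and the secreted glycoprotein gene Stc1 (r = 0.949). Cxcl6 was at 10.96, 11.82 and 10.39 in numbers 1, 2 and 3. The 6 arrays form 3 pairs of the same number, so these correlations are descriptions of few points.

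Receptors and binding partners of the member ligands were measured for 28 of 29 listed genes, and 13 were above background on all 6 arrays. Those included Il6st, the signalling chain shared by the LIF receptor, and Bmpr1a, Bmpr2, Fgfr1 and Tfrc, the transferrin receptor. Kit, Gfra1, Ret, Lifr and Cxcr4 were below background on every array. None of the 28 passed the test of MBP against control without or with the block, with 13 higher and 15 lower and a median log2 difference of -0.00086. The 2 of largest difference above background were the BMP type I receptor Acvr1, at 6.74 ± 0.20 with MBP and 6.83 ± 0.18 in control, and the lipoprotein receptor Vldlr, at 7.74 ± 0.47 and 7.65 ± 0.46 (SD, n = 3 each). Between sample numbers 9 of the 28 were called (32.1%), against 9.62% of all main probe sets and 24.1% of those above background, among them Bmpr2, at 9.23 in number 3, against 8.47 and 8.23 in numbers 1 and 2. The atypical CXCL12 receptor Ackr3 was at 7.71, 7.07 and 6.21 in numbers 1, 2 and 3.

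Target and feedback genes of the same pathways were measured for all 32 listed genes. Of these, 16 were higher and 16 lower with MBP, none passed without or with the block, and the median log2 difference was -0.0033. The 2 of largest difference above background were the BMP signal transducer Smad5, at 6.39 ± 0.10 with MBP and 6.51 ± 0.07 in control, and Stat3, which relays LIF signals, at 8.45 ± 0.09 and 8.54 ± 0.10. Etv5, a GDNF target in germ cells, was below background on every array. Between numbers 13 of the 32 were called (40.6%, beside the same 9.62% and 24.1%). The FGF feedback inhibitor Spry1 was at 4.32, 5.50 and 6.42 in numbers 1, 2 and 3, and was above background in number 3 only. The ERK phosphatase Dusp6 was at 7.30, 7.38 and 6.36. The BMP targets Id1 and Id3 were highest in number 2, at 7.04 and 8.33.

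Of 35 measured other niche ligands, 11 were above background on all 6 arrays and none passed the test of MBP against control without or with the block, with 15 higher and 20 lower. The 2 of largest difference among those above background on all 6 arrays were the chemokine Cxcl1, at 10.54 ± 0.52 with MBP and 10.62 ± 0.45 in control, and the angiogenic factor Vegfa, at 8.78 ± 0.14 and 8.70 ± 0.12. Between numbers 10 of the 35 were called (28.6%), a share near the 24.1% of main probe sets above background and above the 9.62% of all. Cxcl1 was at 10.37, 11.13 and 10.23 in numbers 1, 2 and 3 (limma F, adjusted p = 0.0101), highest in number 2 as Lif was. The Lif relative Il6, below background throughout, was at 4.15, 5.61 and 3.82.

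Of 29 other measured proteins that Sertoli cells secrete, 15 were above background on all 6 arrays and none passed the test of MBP against control without or with the block, with 11 higher and 18 lower and a median log2 difference of -0.03. Plasma glutathione peroxidase Gpx3 was at 6.95 ± 0.62 with MBP and 7.15 ± 0.65 in control, and the IGF-binding gene Igfbp3 at 7.81 ± 0.62 and 7.61 ± 0.54. These were the 2 of largest difference above background. With the block their 95% intervals lay on 1 side of 0, from -0.34 to -0.07 for Gpx3 and from 0.03 to 0.36 for Igfbp3. Neither passed after adjustment over all main probe sets (limma, adjusted p = 0.865 each). In the blocked fit 1255 of the 27342 main probe sets had an unadjusted p under 0.05. Between numbers 10 of the 29 were called (34.5%, beside 9.62% of all main probe sets and 24.1% of those above background). Gpx3 was at 7.77, 6.82 and 6.57 and the lipid carrier Apoe at 7.39, 8.40 and 7.53 in numbers 1, 2 and 3.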

How the data were processed

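Values are log2 signals of the 6 gene arrays, as the authors deposited them. The array medians were 3.84 to 3.89. The submitters' processing notes list MAS5 without saying what it did, and how these values were made is not stated in the labels. The authors' annotated table supplied symbols, accessions and descriptions only, and its 6 signal columns, whose names fit no label, were left unused. Its probe set positions name no build, so gene positions are those of the Ensembl transcripts it quotes on Rnor_5.0.

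Of 29214 probe sets, the 27342 of the main category were fitted with limma 3.58.1 in R 4.3.3 (lmFit, eBayes), with Benjamini-Hochberg adjustment over all of them and a threshold of 0.05. Numbers were compared by the moderated F test in the additive fit with treatment. The fits were tested on simulated data. Deviations from a group mean cancel over its arrays, so positive correlations for some pairs of arrays force lower ones for others. Same-numbered MBP and control arrays deviated together from their group means (r = 0.567, 0.603 and 0.779, against -0.535 to 0.048 for other pairs). The numbers were therefore used as a block in an alternative fit, on the evidence of the data and not of the design. Adjusted p-values, SEs and intervals of MBP minus control come from the fit without the block unless the block is named. The small number of arrays limits the precision.

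Members and lists were chosen with earlier results of these data known. All members are named, and of each list the 2 genes of largest difference above background on all 6 arrays, with the brightest probe set of each gene. Other list genes were chosen after their values were seen.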

Additional observations from a re-analysis of the deposited data

How the results depend on the processing

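No main probe set passed the test of MBP against control under any alternative: the replicate block (count 0), quantile normalization, median centring, both filters on dim probe sets, a trended prior, or leaving out an array or a pair. In the block, 1255 had an unadjusted p under 0.05, against 351 without it. The count between sample numbers was 2630. It was 3614 after quantile normalization and 3614 after median centring, of which 2609 and 2623 were among the 2630, and 3656 with a trended prior. It was 4052 where only the 6341 probe sets above background were fitted, 91 between numbers 1 and 2 alone, and 0 (limma) without any 1 of the 6 arrays, where 1 number rests on a single array assumed to vary like the others. Of the members, 5 were above background on all 6 arrays and 9 were above the intron median in the mean.

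No member difference between MBP and control passed, and the sign of 11 of the 13 probe sets turned under some alternative. After quantile normalization Sparc stood at 0.0137 and Gdnf at -0.0113 on the log2 scale. After median centring Gdnf stood at -0.0173, Fgf2/Nudt6 10815026 at -0.0017 and Bmp4 at -0.0020. In the replicate block without number 1 Cst3 was at 0.0364, Kitlg at 0.0372, Gdnf at -0.0449, Fgf2/Nudt6 10822929 at 0.0516, Lif at -0.0031 and Bmp4 at -0.0642. Without number 2 Srprb/Tf 10919637 was at 0.0138, Sparc at 0.0130 and Bmp4 at -0.0731. Without number 3 Sparc was at 0.0108, Gdnf at -0.0410 and Fgf2/Nudt6 10815026 at -0.0422. Leaving out 1 array gave ranges of -0.294 to 0.242 for Clu, -0.371 to 0.130 for Cst3, -0.106 to 0.116 for Sparc, -0.0042 to 0.0867 for the 12S probe set, -0.268 to 0.178 for Kitlg, -0.0686 to 0.113 for Gdnf, -0.224 to 0.374 for Lif, -0.0824 to 0.216 for Bmp4, -0.419 to 0.185 for Srprb/Tf 10919637, -0.203 to 0.259 for Fgf2/Nudt6 10815026 and -0.0779 to 0.0116 for Fgf2/Nudt6 10822929. Cxcl12 kept its sign in these fits, at -0.151 to -0.0108, as did Srprb/Tf 10919626, at -0.121 to -0.0316. The causes were not tested.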

Other observations

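Many probe sets had the same deposited value on 2 or more arrays. This held for 45.4% of the 27342 main probe sets, for 17.2% of those above background on all 6 arrays and for 56.8% of those above it on none. Among the 9 member probe sets it held for 2, those of Kitlg and Bmp4. Kitlg had 4.61 on MBP array 1 and on control array 2, and Bmp4 had 2.77 on MBP arrays 2 and 3.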
